A study of Homo sapiens with 12 samples.

Results

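The transcriptomes of TC71 and EW8 cells were compared 72 h after AP-1 was induced in both. TC71 and EW8 are established Ewing sarcoma lines that both carry the EWS-FLI1 fusion, and each line held the same lentiviral doxycycline-inducible construct for c-Jun and c-Fos as a selected pool of transduced cells. The 3 TC71 and the 3 EW8 libraries from cells kept in doxycycline at 2000 ng/ml for 72 h were set against each other, that is 6 of the 12 libraries of the study. The other 6 libraries came from the same transduced pools, 3 per line, kept for 72 h in vehicle (DMSO). They served here as the level of each line difference without induction. No library came from doxycycline-treated cells without the transgenes, so an effect of doxycycline itself cannot be told apart from that of c-Jun and c-Fos. Both lines grew in DMEM with 10% serum. The libraries were stranded polyA RNA-seq, and the 6 doxycycline libraries held 43664892 to 56771817 counts. Of 58721 annotated genes, 21013 had enough counts to be tested, and these held 99.95% of all counts. The labels do not say whether the 3 libraries of a group came from separate cultures, so p-values measure only the spread between these libraries, which may be technical.

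AP-1 is a family of dimeric transcription factors built from Jun, Fos, ATF and Maf proteins that bind the short palindrome TGANTCA, and it is best known for driving proteases, cytokines and matrix genes in wounded and invading cells. Many inflammatory promoters need NF-kB beside AP-1, and interferon-stimulated genes are driven by STAT and IRF complexes through a different element. In Ewing sarcoma the EWS-FLI1 fusion keeps many mesenchymal and matrix genes low, and c-Jun and c-Fos were induced together in the study to find the pathways that they regulate. The question here was how 2 lines with the same fusion and the same construct differed once AP-1 was on.

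All 12 Ewing sarcoma markers examined were tested, with 3 called higher in EW8 and 0 higher in TC71. With doxycycline 18.4% of all genes tested were called higher in EW8 and 12.6% higher in TC71. The marker counts in this paragraph are to be read against these shares, and the short lists cannot show a departure from them. CD99, the surface antigen used in diagnosis, averaged 759.6 CPM (the count scaled to a common depth by TMM-scaled library sizes) in TC71 and 1243 CPM in EW8. NKX2-2, a neural transcription factor that is a direct fusion target, was 9.79, 9.42 and 12.4 CPM in TC71 and 28.3, 22.9 and 27.5 CPM in EW8. The median log2 difference of the 12 markers (TC71 minus EW8) was 0.08, and 9 were not called. Of those 9, CD99, NR0B1 and LIPI averaged lower in TC71, and STEAP1, PRKCB, CCND1, KDSR, HES6 and FLI1 higher. FLI1 was 75.84 CPM in TC71 and 42.53 CPM in EW8, and STEAP1 131.0 and 70.88 CPM. Markers of other cell types were not all silent. PTPRC, which encodes the leukocyte phosphatase CD45, was at 72.4, 74.9 and 77.4 CPM in EW8 and at or under 0.145 CPM in TC71. Of the 10 leukocyte markers 4 could be tested and 2 were called higher in EW8, while CD3E, CD3D, CD2 and MS4A1 had 0 counts in every doxycycline library. The endothelial genes PECAM1 (3.66 against 37.5 CPM, TC71 against EW8) and TIE1 (60.3 against 14.03 CPM) went opposite ways, and of 8 endothelial markers 5 were called higher in EW8 and 2 higher in TC71. Of the epithelial markers 4 of 8 could be tested, with 1 called in each direction, and of 10 fibroblast markers 5 were called higher in TC71 and 0 higher in EW8. COL1A2, a defining fibroblast collagen, was at 0.25 and 0.281 CPM. The summed level of the leukocyte markers was 1.31 to 1.82 CPM in TC71 and 77.3 to 82.8 CPM in EW8, that of the endothelial markers 73.5 to 73.7 and 62.9 to 69.8 CPM, that of the epithelial markers 67.5 to 85.3 and 41.5 to 53.4 CPM, and that of the fibroblast markers 473.9 to 483.6 and 195.0 to 211.5 CPM. The part of other cells in these values was not tested.

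A gene was called different when its Benjamini-Hochberg adjusted p from edgeR's quasi-likelihood test was under 0.05 and its log2 difference was over 1 in size. With doxycycline 2642 genes (12.6% of those tested) were called higher in TC71 and 3874 genes (18.4%) higher in EW8. With vehicle the counts were 2446 (11.6%) and 3974 (18.9%). Counts of list members called are to be read against these shares in the same condition. Most differences were there without induction: of the 2642 genes higher in TC71 with doxycycline, 1720 (65.1%) were called the same way with vehicle, 871 (33.0%) were not called and 51 (1.93%) were called the other way. Of the 3874 genes higher in EW8, 2922 (75.4%) were called the same way with vehicle, 921 (23.8%) were not called and 31 (0.8%) were called the other way. The 2 contrasts use different libraries of the same pools, and missing the call with vehicle does not by itself show a changed difference. A gene was scored as at the floor in a group when all 3 libraries held at most 6 counts, which is 3 read pairs since each mate was counted. The lower line was at the floor for 401 (15.2%) of the genes higher in TC71 and for 1162 (30.0%) of those higher in EW8. For such genes the fold is given as a lower bound against 3 read pairs per library over the group.

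Counts did not use strand, so reads of a gene and of one that overlaps it on the other strand cannot be told apart, and such an overlap applies to JUNB, IL6, TNFAIP3, TNFRSF10A, IRF1, JAK1, TAP1, PSMB8, PSMB9, MMP9, PLAU, LOXL1, LOXL2, BMP1, VIM, VCL, TNC, FBN2, ITGB1, FLNC, NEFM, KRT18, ERRFI1, TGFB1, EPHA4, HOXA3, HOXA7, MEIS1, CDKN2A, F2RL2, FUCA2 and KCNAB1. Whether induction changed a line difference was tested as an interaction, the line difference with doxycycline minus that with vehicle. The difference shifted toward TC71 for 878 genes (4.18%) and toward EW8 for 603 genes (2.87%). Of the 871 genes higher in TC71 with doxycycline and not called with vehicle, 166 were called as shifted toward TC71. Of the 921 such genes higher in EW8, 159 were called as shifted toward EW8. The plot of the 2 line differences shows these genes on either side of the diagonal.

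**Figure D1:**
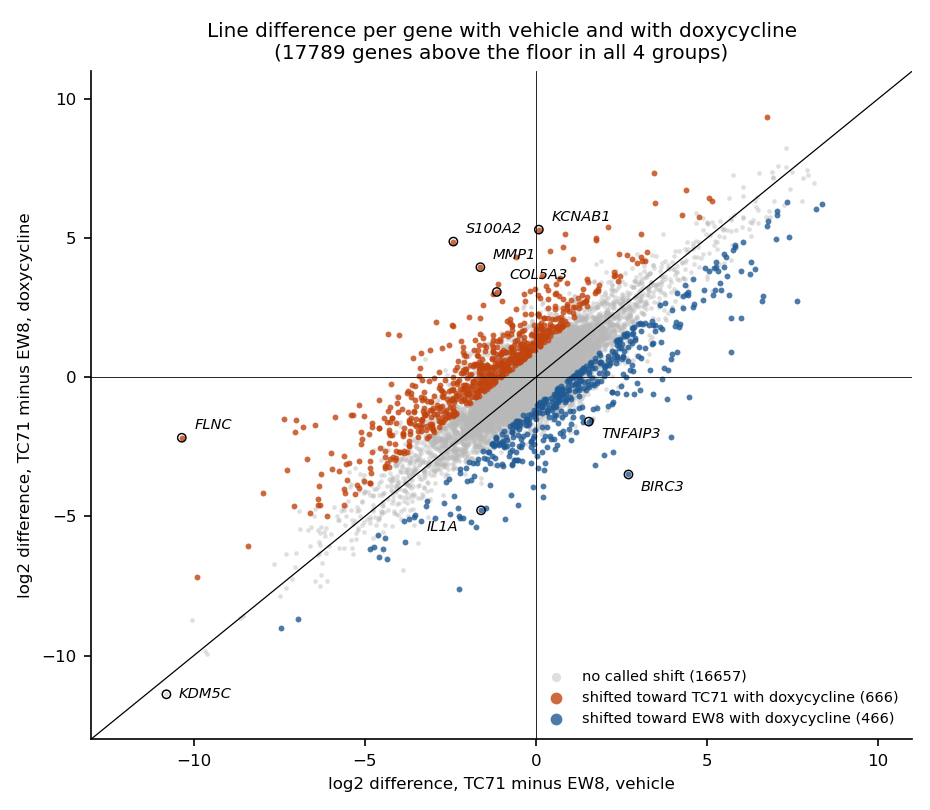
Each point is 1 of 17789 genes above the floor in all 4 groups, with its log2 line difference (TC71 minus EW8) with vehicle on the x axis and with doxycycline on the y axis. Red points (666) are called as shifted toward TC71 and blue points (466) toward EW8, the line marks equal differences, and MMP1 and S100A2 lie above it on the far side of 0 while BIRC3 and TNFAIP3 lie below it.

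Both induced genes reached high levels in both lines. JUN (chr1:58780788-58784327, minus strand, hg38), which encodes c-Jun, was at 748.0, 813.5 and 705.0 CPM in TC71 and at 503.5, 495.3 and 422.2 CPM in EW8. The TC71 libraries were all above the EW8 libraries, and the log2 difference was 0.67 ± 0.1 (SE, adjusted p = 1.62e-05, edgeR), under the fold limit. FOS (chr14:75278774-75282230, plus strand), which encodes c-Fos, was at 1604, 1686 and 1450 CPM in TC71 and at 1096, 1139 and 998.7 CPM in EW8. Its difference of 0.55 ± 0.06 (adjusted p = 2.03e-07) was also under the fold limit. With vehicle FOS had been called lower in TC71 (log2 -1.65), so its line difference shifted toward TC71 by 2.21 ± 0.09 (adjusted p = 6.41e-12). Counts from the construct and from the endogenous genes could not be told apart.

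Of 20 tested AP-1 and Maf subunits, 0 were called higher in TC71 and 4 higher in EW8 (median log2 0.11 against -0.03 over all genes tested). With vehicle 6 had been called higher in TC71 and 5 higher in EW8. FOSL1 (Fra-1) was at 86.2, 86.4 and 74.6 CPM in TC71 and at 94.4, 105.6 and 96.1 CPM in EW8, and at most 2.115 CPM in any vehicle library. Its log2 difference with doxycycline, -0.26 ± 0.1 (adjusted p = 0.0349), was under the fold limit. FOSL2 (Fra-2) was at 133.8 and 112.3 CPM with doxycycline, but 15.25 against 2.255 CPM with vehicle, a shift of -2.5 on the log2 scale, toward EW8. JUNB, at 40.5 and 45.3 CPM with doxycycline, had a shift of -1.58. For FOSL1, FOSL2 and JUNB the gap between the lines was thus smaller with doxycycline than with vehicle. The 4 subunits called were MAFF, MAFA, MAF and BATF2. MAFF, a small Maf without a transactivation domain, was at 3.2, 2.1 and 3.16 CPM in TC71 and at 21.2, 24.7 and 21.4 CPM in EW8, a difference of -2.99 ± 0.17 (adjusted p = 2.16e-11) that was not called with vehicle (-0.39). MAFA was lower in TC71 (log2 -4.97 ± 0.19) and BATF2 likewise (log2 -2.88), and MAF was at 0 counts in TC71 against 2.46 CPM in EW8.

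**Figure D2:**
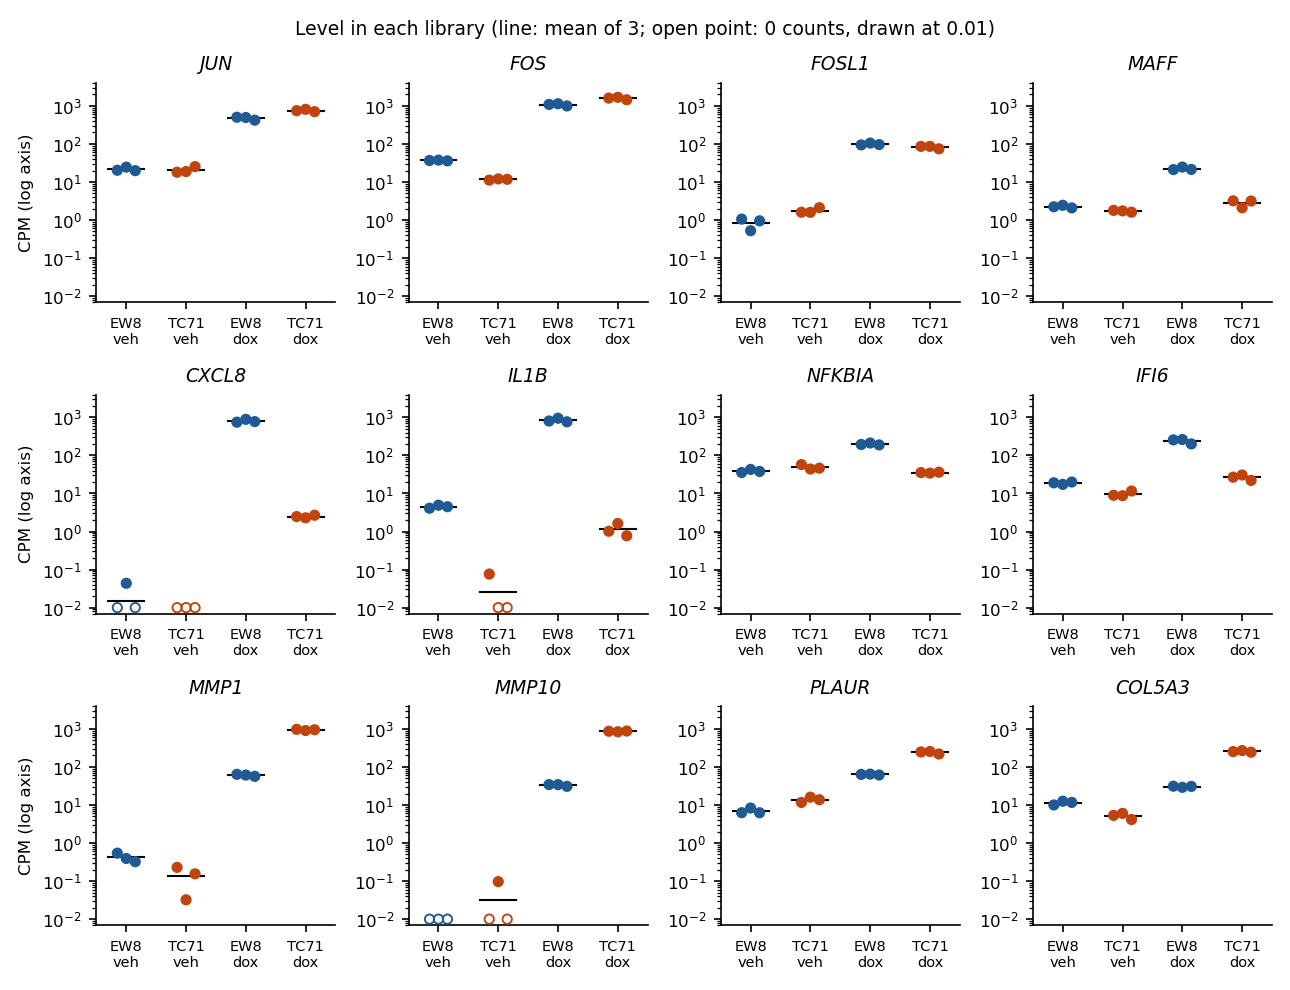
CPM on a log axis of 12 genes in each of the 12 libraries, EW8 in blue and TC71 in red, with vehicle (veh) on the left and doxycycline (dox) on the right of each panel, bars marking the mean of 3 and open points marking 0 counts, drawn at the foot of the axis. JUN, FOS and FOSL1 sit close together in the doxycycline libraries of both lines, CXCL8, IL1B, NFKBIA and IFI6 are highest in EW8 with doxycycline, and MMP1, MMP10, PLAUR and COL5A3 are highest in TC71.

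As examples of promoters that hold a motif match, the 250 bases before the RefSeq start are printed for 6 genes described next. MMP10 and CXCL8 are shown for a TGANTCA match. CXCL2 and CXCL10 are shown for an NF-kB-type match (GGG and TTCC with any 3 bases between them). CXCL10, IFIT1 and IFIT3 are shown for an interferon-response match (GAAA and GAAA with any 2 bases between them). Capitals mark matches on either strand, and matches of the same or another motif that overlap are shown as 1 run.
MMP10 (GRCh38.p14, chr11:102780629-102780878, minus strand): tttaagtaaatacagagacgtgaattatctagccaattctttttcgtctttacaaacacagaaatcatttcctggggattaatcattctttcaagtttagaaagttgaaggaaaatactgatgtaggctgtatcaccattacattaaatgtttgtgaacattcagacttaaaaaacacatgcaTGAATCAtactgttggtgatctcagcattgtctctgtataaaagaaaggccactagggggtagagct
CXCL8 (GRCh38.p14, chr4:73740319-73740568, plus strand): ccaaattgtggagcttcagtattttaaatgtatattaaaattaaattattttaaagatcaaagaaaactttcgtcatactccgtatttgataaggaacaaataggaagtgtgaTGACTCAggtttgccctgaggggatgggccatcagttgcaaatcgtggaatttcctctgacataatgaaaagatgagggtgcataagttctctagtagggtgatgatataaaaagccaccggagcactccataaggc
CXCL2 (GRCh38.p14, chr4:74099196-74099445, minus strand): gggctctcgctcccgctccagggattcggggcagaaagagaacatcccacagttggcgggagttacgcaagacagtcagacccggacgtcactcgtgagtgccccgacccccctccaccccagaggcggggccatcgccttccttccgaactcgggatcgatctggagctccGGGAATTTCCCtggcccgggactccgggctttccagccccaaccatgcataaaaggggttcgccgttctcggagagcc
CXCL10 (GRCh38.p14, chr4:76023498-76023747, minus strand): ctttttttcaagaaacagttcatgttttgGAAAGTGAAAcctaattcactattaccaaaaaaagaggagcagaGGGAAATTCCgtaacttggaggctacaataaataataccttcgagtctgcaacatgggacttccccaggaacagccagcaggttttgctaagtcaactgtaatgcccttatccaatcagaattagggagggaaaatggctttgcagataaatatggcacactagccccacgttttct
IFIT1 (GRCh38.p14, chr10:89392373-89392622, plus strand): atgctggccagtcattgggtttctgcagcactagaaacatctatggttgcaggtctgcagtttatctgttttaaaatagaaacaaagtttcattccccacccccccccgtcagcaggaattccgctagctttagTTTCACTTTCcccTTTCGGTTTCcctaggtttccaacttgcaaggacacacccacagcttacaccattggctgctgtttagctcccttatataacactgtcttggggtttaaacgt
IFIT3 (GRCh38.p14, chr10:89327747-89327996, plus strand): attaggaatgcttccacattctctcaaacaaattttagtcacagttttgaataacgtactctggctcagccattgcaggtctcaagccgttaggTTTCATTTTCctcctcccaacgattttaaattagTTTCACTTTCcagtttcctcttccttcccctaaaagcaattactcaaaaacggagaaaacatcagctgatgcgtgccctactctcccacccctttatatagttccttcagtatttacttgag

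The match in MMP10, TGAATCA, starts at -67 from the start site and that in CXCL8, TGACTCA, at -137. In CXCL2 a forward match at -78 overlaps a reverse match at -77, since the letters read nearly the same on both strands. IFIT1 and IFIT3 each hold a pair of matches on the reverse strand. Promoters of 11955 of the 14880 tested protein-coding genes (80.3%) were found in the RefSeq table, and motifs were counted in the 300 bases from 250 before to 50 after the start. TGANTCA was in 4.84% of all these promoters, in 4.78% of those of genes higher in TC71 with doxycycline, in 6.81% of those higher in EW8 and in 4.36% of those not called. It was in 3 of 9 CXC chemokine promoters (33.3%), 6 of 41 interferon-stimulated ones (14.6%) and 1 of 6 of matrix metalloproteinases (16.7%). The narrower TGAGTCA, on either strand, was in 3.3% of all promoters. It was in 3.74% of those higher in TC71, 4.75% of those higher in EW8 and 2.85% of those not called. By list it was in 3 of 9 CXC chemokine, 3 of 41 interferon-stimulated and 0 of 6 matrix metalloproteinase promoters, so the TGAATCA of MMP10 is not of this form. Promoters were found for only 6 of the 17 tested matrix metalloproteinases, for 9 of 10 CXC chemokines and for 41 of 52 interferon-stimulated effectors. The NF-kB-type match was in 7.33% of all promoters and in 6 of the 9 matched CXC chemokine promoters, 3 of 41 interferon-stimulated and 0 of 6 matrix metalloproteinase promoters. The interferon-response match was in 2.9% of all promoters and in 26 of the 41 matched promoters of interferon-stimulated genes, 1 of 9 of CXC chemokines and 0 of 6 of matrix metalloproteinases. A match is a description of the letters and not a site shown to be bound.

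Of the 10 CXC chemokines tested, 9 were called higher in EW8 with doxycycline and 1 higher in TC71 (median log2 -6.9, or -4.34 when members at the floor take their bound, against -0.03 over all genes). With vehicle 4 were called higher in EW8 and 1 higher in TC71, CXCL2, on at most 6 counts per library. CXCL8, the neutrophil attractant interleukin-8, was at 2.47, 2.29 and 2.69 CPM in TC71 and at 749, 890 and 775 CPM in EW8. The EW8 libraries were 323-fold higher (log2 -8.34 ± 0.11, adjusted p = 1.08e-17), while with vehicle both lines were at the floor. CXCL2 was at 0, 0.287 and 0.319 CPM in TC71 and at 78.7 CPM or more in each EW8 library, 423-fold higher. CXCL3 and CXCL1, its neighbours on chromosome 4, had 0 counts in all 3 TC71 doxycycline libraries and averaged 16.9 and 2.9 CPM in EW8, with lower bounds of 119-fold and 20.4-fold. CXCL10, the interferon-induced T-cell attractant, averaged 4.6 CPM in EW8, at least 32.5-fold the TC71 level. The 1 chemokine of this family called higher in TC71 was CXCL12 (1.64 against 0.215 CPM, log2 2.92 ± 0.4).

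Among 9 CC, XC and CX3C chemokines, 7 were called higher in EW8 and 1 higher in TC71. CCL20, which draws CCR6-bearing lymphocytes, was at 54.4, 62.9 and 51.3 CPM in EW8 and at most 0.0455 CPM in TC71, at least 397-fold higher. CCL26 (eotaxin-3) was 197-fold higher in EW8 at 68.9 CPM. CCL2 and CCL5 were lower in TC71 (log2 -4.71 ± 0.56 and -3.45 ± 0.35). CCL28 was the 1 gene higher in TC71, at 0.533, 1.2 and 1.07 CPM against 0 counts in EW8.

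Of 27 interleukins, LIF and colony-stimulating factors, 19 were called higher in EW8 and 3 higher in TC71 (median log2 -3.04, or -2.28 with members at their bound), against 11 and 0 with vehicle. IL1B, the inflammasome-processed cytokine interleukin-1 beta, was at 1.02, 1.62 and 0.773 CPM in TC71 and at 805.6, 950.8 and 766.4 CPM in EW8. EW8 was 740-fold higher (log2 -9.53 ± 0.17, adjusted p = 1.18e-17), and EW8 had also been higher with vehicle, at 4.1 to 4.92 CPM. IL1A was at 8.94, 8.77 and 7.94 CPM in TC71 and at 216.3, 256.6 and 230.5 CPM in EW8, 27.4-fold higher. Its difference shifted toward EW8 (log2 -3.18 ± 0.68, adjusted p = 0.00261). IL6 and CSF3 (granulocyte colony-stimulating factor) had 0 counts in every TC71 doxycycline library and averaged 5.4 and 19.3 CPM in EW8, with lower bounds of 38.1-fold and 136-fold. LIF, another ligand of the gp130 receptor, was at 7.97 and 38.8 CPM. The 3 genes of the list called higher in TC71 were IL11, CSF1 and IL12A. IL11, a gp130 cytokine with a known place in fibrosis, was at 147.4, 150.3 and 125.8 CPM in TC71 and at 16.3, 12.8 and 11.97 CPM in EW8, 10.3-fold higher in TC71 (log2 3.36 ± 0.17, adjusted p = 5.41e-12). With vehicle it was at most 0.97 CPM in all libraries and called higher in EW8, so the difference shifted toward TC71 by 4.47 ± 0.46. CSF1 was 24.3 against 11.9 CPM, a log2 difference of 1.03 that fell to between 0.95 and 1 under 9 of the alternatives and was then not called, and IL12A 1.83 against 0.447 CPM.

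Of 26 NF-kB subunits, inhibitors and regulators, 16 were called higher in EW8 and 1 higher in TC71 (median log2 -1.26), against 5 and 4 with vehicle (median -0.09), and 13 were called as shifted toward EW8 and 0 toward TC71. NFKBIA, the inhibitor that NF-kB itself turns on, was at 35.4, 34.2 and 36.3 CPM in TC71 and at 194.3, 212.1 and 189.3 CPM in EW8. With vehicle it averaged 49.3 CPM in TC71 and 38.8 CPM in EW8, and the difference shifted toward EW8 (log2 -2.83 ± 0.13, adjusted p = 2.91e-11). The subunit genes NFKB1 (34.4 against 76.9 CPM), NFKB2 (31.4 against 75.2 CPM) and RELB (5.26 against 33.6 CPM) were all called higher in EW8. TNFAIP3 (A20), a deubiquitinase that ends the signal, and BIRC3, a ubiquitin ligase of the same pathway, were called higher in TC71 with vehicle (log2 1.55 and 2.71) and higher in EW8 with doxycycline (log2 -1.59 and -3.49). The 1 gene of the list called higher in TC71 was IKBKE (log2 3.56 ± 0.22). TNIP3, another inhibitor of the pathway, was at the floor in TC71 and at 4.833 to 8.495 CPM in EW8.

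Of 33 TNF ligands and receptors, 19 were called higher in EW8 and 5 higher in TC71, and the split with vehicle was 19 and 4. TNFRSF9 (4-1BB), a lymphocyte costimulatory receptor, was at 4.36, 3.3 and 3.18 CPM in TC71 and at 210.9, 233.6 and 211.5 CPM in EW8, and both lines were at the floor with vehicle. CD40 was 102-fold higher in EW8 (log2 -6.68 with doxycycline and -6.24 with vehicle). TNF itself was at most 0.339 CPM in TC71 and at 4.43 to 7.51 CPM in EW8. TNFRSF10A (TRAIL receptor 1) was at 59.3, 62.2 and 62.3 CPM in TC71 and at 0.627, 0.988 and 0.639 CPM in EW8, and the decoy TNFRSF10D was 64.4 against 3.25 CPM. TNFRSF11A (RANK) was 10.5 against 0.341 CPM.

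Of 52 interferon-stimulated effectors tested, 42 were called higher in EW8 and 0 higher in TC71 (median log2 -2.3), against 28 and 2 with vehicle (median -1.2). With members at their bound the medians were -2.18 and -0.98. The difference shifted toward EW8 for 18 of them and toward TC71 for 3. IFI6 was at 26.8, 30.7 and 22.1 CPM in TC71 and at 256.3, 262.2 and 200.7 CPM in EW8, and shifted toward EW8 (log2 -2.23 ± 0.18). IFIT1, which binds viral RNA ends, was at 29.9, 28.9 and 28.3 CPM in TC71 and at 114.7, 106.0 and 92.8 CPM in EW8. With vehicle the IFIT1 difference was 0.97, under the fold limit, and its shift toward EW8 was -2.81 ± 0.12 (adjusted p = 1.63e-11). IFIT3 (20.2 against 123.2 CPM), OAS3 (21.9 against 190.3 CPM) and OAS1 (0.718 against 43.3 CPM) also shifted toward EW8. BST2 (tetherin) and MX2 were 401-fold and 74.1-fold higher in EW8, with log2 differences of -8.65 and -6.21. With vehicle the BST2 difference was also -8.65, and MX2 was at the floor in TC71 and averaged 2.335 CPM in EW8. ISG15 missed the fold limit (44.6 against 81.8 CPM, log2 -0.88 ± 0.15, adjusted p = 4.76e-05), and passed it without the third EW8 doxycycline library (log2 -1.12) or the second TC71 one (log2 -1.02).

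The sensors and factors upstream of these genes were mixed, with 10 of 35 called higher in EW8 and 7 higher in TC71. STAT2 (43.4 against 96.4 CPM), a subunit of the factor that interferon receptors activate, was higher in EW8 and had differed by 0.05 on the log2 scale with vehicle. IRF1 and IRF9 were not called. The RNA sensors RIGI (RIG-I) and DHX58 (LGP2) were lower in TC71 (log2 -3.06 ± 0.12 and -4.5 ± 0.17). CGAS, the DNA sensor, was at 26.9, 25.2 and 29.2 CPM in TC71 and at 1.47, 1.9 and 1.8 CPM in EW8, and IRF7 was 56.4-fold higher in TC71 at 5.03 to 8.94 CPM. JAK1, an interferon receptor kinase, was also higher in TC71 (log2 1.08 ± 0.05).

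MHC class I genes differed by locus. Of 24 presentation genes, 6 were called higher in EW8 and 2 higher in TC71. HLA-B was at 24.6, 26.8 and 23.2 CPM in TC71 and at 452.4, 438.0 and 417.3 CPM in EW8, and HLA-C was 53.8 against 297.8 CPM, after log2 differences of -4.92 and -3.21 with vehicle. Reads of these genes can be shared among HLA loci, so the locus values are uncertain. The peptide transporter TAP1 (6.76 against 67.0 CPM) and the immunoproteasome subunits PSMB8 and PSMB9 were lower in TC71 (log2 -3.31, -5.19 and -6.92). Among 23 checkpoint and adhesion surface genes, 7 were called higher in TC71 and 6 higher in EW8. CD274 (PD-L1) was at 28.5, 26.1 and 23.8 CPM in TC71 and at 4.04, 4.07 and 2.63 CPM in EW8, with at most 0.387 CPM in any vehicle library and a shift toward TC71 of 2.74 ± 0.58 (adjusted p = 0.00225). Of 24 complement genes 8 were called higher in EW8 and 5 higher in TC71. C5 was 190-fold and C3 82.6-fold higher in EW8, with log2 differences of -7.31 and -6.38 with vehicle.

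**Figure D3:**
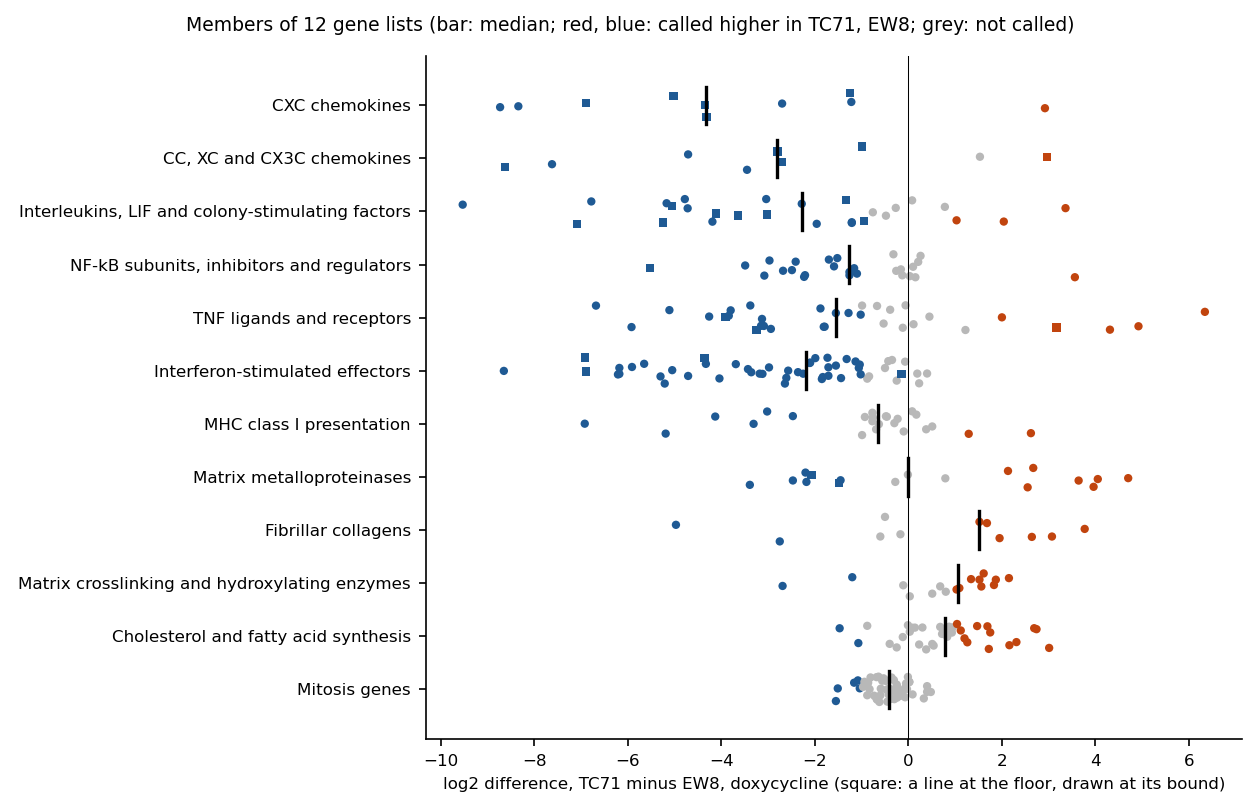
Each point is a tested member of 1 of 12 gene lists, placed at its log2 difference (TC71 minus EW8) in the doxycycline libraries, red where called higher in TC71, blue where called higher in EW8 and grey where not called, with squares for members that were at the floor in a line and are drawn at their bound and a bar at each median. Chemokines, interleukins, NF-kB, TNF and interferon-stimulated genes lie mostly left of 0, fibrillar collagens, crosslinking enzymes and cholesterol genes mostly right of it, and matrix metalloproteinases fall on both sides.

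Of 17 matrix metalloproteinases, 7 were called higher in TC71 and 7 higher in EW8, against 3 and 9 with vehicle, and 8 were called as shifted toward TC71 and 0 toward EW8. MMP13, 1 of the 7, lost its call when any EW8 doxycycline library or either of the first and second TC71 ones was left out (log2 1.79 to 2.31). MMP10 (stromelysin-2, chr11:102770503-102780628, minus strand) was at 868.3, 839.9 and 879.5 CPM in TC71 and at 34.4, 34.3 and 30.9 CPM in EW8. TC71 was higher (log2 4.7 ± 0.1, adjusted p = 1.25e-15), from the floor in both lines with vehicle. Its neighbour MMP1 (interstitial collagenase, chr11:102789920-102798160, minus strand) was at 974.0, 904.7 and 949.2 CPM in TC71 and at 63.9, 61.2 and 56.6 CPM in EW8, 15.6-fold higher. With vehicle MMP1 had been called higher in EW8 at levels of at most 0.541 CPM, and the shift toward TC71 was 5.57 ± 0.39 (adjusted p = 9.32e-09). MMP3, in the same cluster, was at 22.1, 19.6 and 27.1 CPM in TC71 and at 1.2, 1.5 and 1.46 CPM in EW8. MMP14, the membrane-bound activator of MMP2, was 155.9 against 12.5 CPM. The gelatinases stood the other way: MMP2 was 83.2 against 227.8 CPM and MMP9 was 7.895 against 36.25 CPM. For MMP2 the vehicle gap had been larger (log2 -4.2 against -1.45 with doxycycline). TIMP3, the matrix-bound inhibitor, was 9.13-fold higher in EW8 and TIMP1 had a log2 difference of -0.53, under the fold limit.

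In the plasminogen system 3 of 9 genes were called higher in TC71 and 2 higher in EW8. PLAUR, the urokinase receptor, was at 247.8, 255.1 and 218.8 CPM in TC71 and at 63.8, 64.8 and 61.5 CPM in EW8 (log2 1.93 ± 0.1, adjusted p = 1.21e-11), whereas PLAU, urokinase itself, was 24.4 to 25.3 CPM in TC71 and 107.9 to 127.0 CPM in EW8.

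Fibrillar collagens and the enzymes that crosslink them were called higher in TC71 more often than in EW8. For the collagens the counts were 6 and 2 of 11 (median log2 1.52), against 4 and 6 with vehicle. The vehicle median was -1.09, or -0.19 when members at the floor, 2 of them in TC71, take their bound. COL5A3 was at 253.0, 269.6 and 244.3 CPM in TC71 and at 31.2, 29.1 and 30.8 CPM in EW8. With vehicle it had been called higher in EW8 (log2 -1.14), so that the difference of 3.07 ± 0.1 with doxycycline was a shift of 4.21 ± 0.14 (adjusted p = 5.82e-13). COL5A2 (318.4 against 51.1 CPM) and COL3A1 (134.6 against 34.8 CPM) were higher in TC71 with vehicle as well. COL1A1 was 92.8 against 32.3 CPM with doxycycline and 26.1 against 28.6 CPM with vehicle. COL5A1 was not called with doxycycline (92.1 against 129.9 CPM), after 10.1 against 136.3 CPM with vehicle. Among the 16 crosslinking and hydroxylating enzymes 9 were called higher in TC71 and 2 higher in EW8, against 2 and 3 with vehicle. LOXL2, a lysyl oxidase, was at 266.9, 280.1 and 250.8 CPM in TC71 and at 58.9, 61.9 and 59.1 CPM in EW8, and shifted toward TC71 by 3.79 ± 0.13. LOXL1 (97.6 against 45.8 CPM) and BMP1, the procollagen C-proteinase (99.9 against 27.2 CPM), were also called higher in TC71, LOXL1 not without the third EW8 doxycycline library (log2 0.98).

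Of 14 basement membrane and type VI collagens 5 were called higher in EW8 and 1 higher in TC71 (2 without the third TC71 doxycycline library), and of 14 laminins and nidogens 5 and 2. COL4A1 and COL4A2, which share a promoter region and form the type IV network, were at 33.2 to 40.7 and 101.8 to 120.4 CPM in EW8, and at most 0.097 and 0.819 CPM in TC71. COL6A1 and COL6A2 had been lower in TC71 with vehicle (log2 -3.28 and -3.78) and were under the fold limit with doxycycline (log2 -0.53 and -0.57), while COL6A3 was higher in TC71 (53.2 against 5.13 CPM). LAMA2, a laminin chain of muscle and nerve, was at 122.7, 121.6 and 111.8 CPM in TC71 and at 3.35, 3.62 and 2.97 CPM in EW8. LAMB3 was lower in TC71 (89.8 against 237.9 CPM), after a far wider vehicle gap (log2 -5.86 against -1.41).

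FN1, VIM, VCL and FAP, whose proteins were also followed by immunoblot, differed at the RNA level by less than the fold limit with doxycycline. FN1 (fibronectin) was at 1830, 1984 and 2011 CPM in TC71 and at 2244, 2424 and 2297 CPM in EW8, a log2 difference of -0.26 ± 0.14 (adjusted p = 0.124). With vehicle FN1 was at 41.2, 75.9 and 77.2 CPM in TC71 and at 764.1, 793.3 and 808.0 CPM in EW8, and the shift toward TC71 was 3.35 ± 0.21 (adjusted p = 1.88e-09). VIM (vimentin) was 1679 against 1081 CPM (log2 0.64 ± 0.05, adjusted p = 1.04e-09, edgeR) with a shift of -1.48 toward EW8. VCL (vinculin) was 517.6 against 392.0 CPM (log2 0.4 ± 0.05, adjusted p = 2.12e-06). FAP was 24.9 against 21.2 CPM (log2 0.23 ± 0.16, adjusted p = 0.219). VIM and VCL thus passed the limit on adjusted p, higher in TC71, and FN1 and FAP did not. Of 43 fibronectin, proteoglycan and matricellular genes 18 were called higher in EW8 and 10 higher in TC71. TNC (tenascin-C) was at 1748, 1782 and 1643 CPM in TC71 and at 1790, 1828 and 1603 CPM in EW8, with a log2 difference of -0.01 (SE 0.11). BGN (biglycan) was 604-fold higher in EW8. FBN2 (fibrillin-2) was at 35.3 CPM in EW8 and at 0 counts in TC71. TGFBI was 566.8 against 163.2 CPM, with every vehicle library at or under 0.218 CPM.

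**Figure D4:**
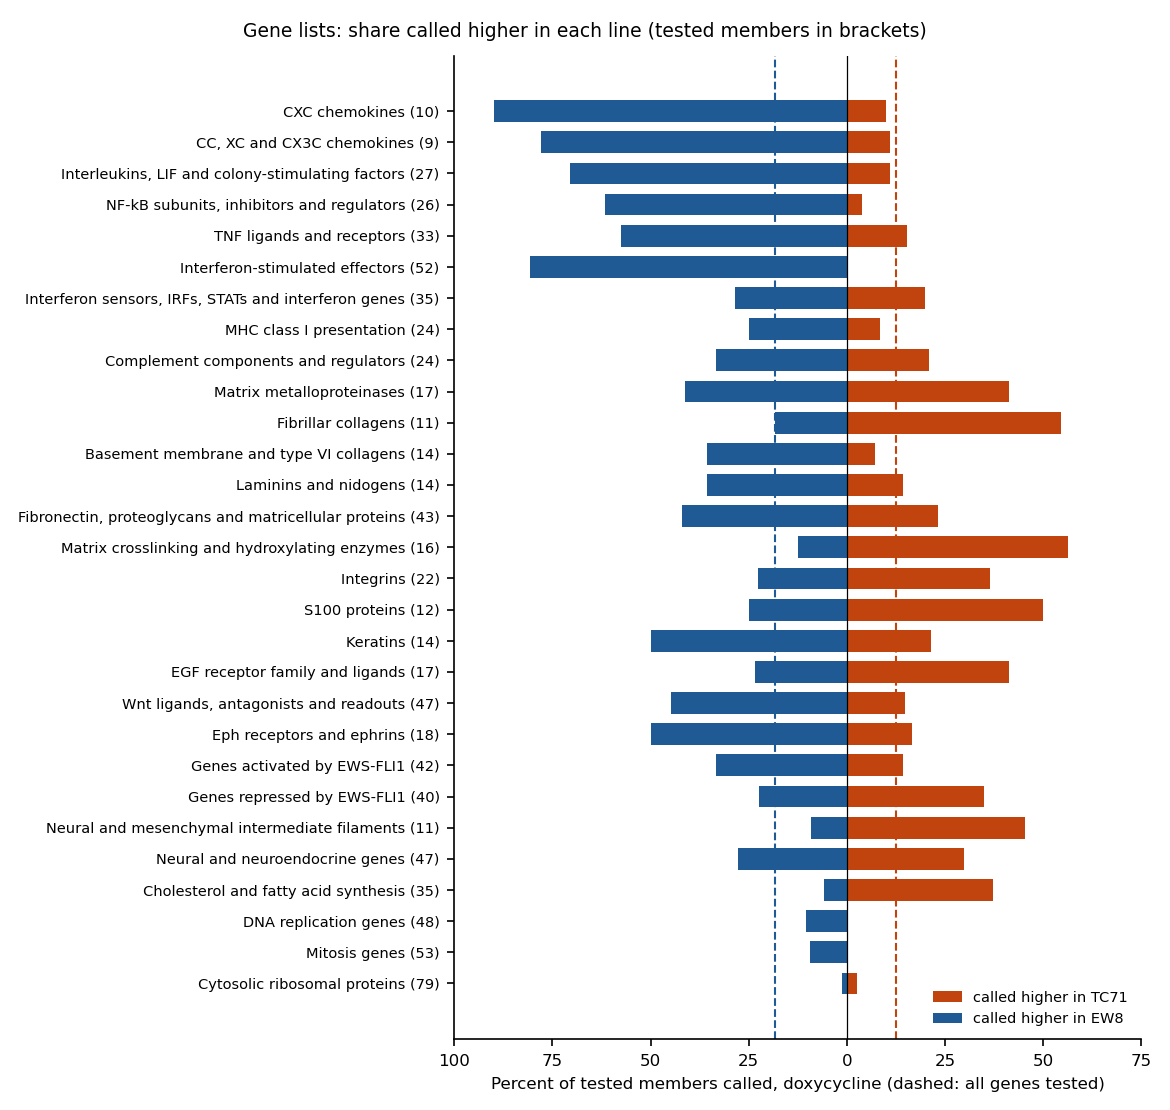
Bars give the percent of tested members of 29 gene lists called higher in TC71 (red, right) or in EW8 (blue, left) with doxycycline, and dashed lines mark the shares over all genes tested, 12.6% and 18.4%. The chemokine, interleukin, NF-kB, TNF and interferon-stimulated lists reach furthest to the left and fibrillar collagens and crosslinking enzymes furthest to the right. Replication, mitosis and ribosomal genes stay inside both dashed lines.

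Of 22 integrins 8 were called higher in TC71, 5 without the third EW8 doxycycline library, and 5 higher in EW8. ITGB1, the shared beta chain of the matrix receptors, was at 1222, 1185 and 1229 CPM in TC71 and at 329.3, 319.8 and 347.0 CPM in EW8 (log2 1.87 ± 0.06), and its partner ITGA3 was 184.8 against 41.7 CPM. Of 50 contractile and focal adhesion genes 12 (24.0%) were called higher in TC71 and 11 (22.0%) higher in EW8. Over all genes the shares were 12.6% and 18.4%. PARVB (beta-parvin) was 91.8-fold higher in TC71, and CAV1 (caveolin-1) was 1742 against 4000 CPM. FLNC (filamin C) was at 528.6, 577.9 and 504.2 CPM in TC71 and at 2597, 2452 and 2175 CPM in EW8. With vehicle it was at most 0.322 CPM in TC71 and at least 248.5 CPM in EW8, and the shift toward TC71, 8.18 ± 0.18 (adjusted p = 5.15e-15), left it 4.49-fold higher in EW8.

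Of 11 neural and mesenchymal filament genes 5 were called higher in TC71 and 1 higher in EW8. The neurofilament genes NEFL, NEFM and NEFH, which give axons their calibre, averaged 702.9, 193.2 and 500.4 CPM in TC71 and 4.24, 0.18 and 8.67 CPM in EW8. NEFM was 960-fold higher, and all 3 had been higher in TC71 with vehicle too, at 91.3 to 116.2 CPM for NEFL and 876.4 to 917.8 CPM for NEFH. NES (nestin) was 16.8 against 0.873 CPM. Of 14 keratins 7 were called higher in EW8 and 3 higher in TC71. KRT75 was at 18.5, 21.4 and 18.2 CPM in EW8 and at 0 counts in TC71 and in all vehicle libraries, at least 137-fold higher. KRT18, of simple epithelia, was at 211.2 to 225.9 CPM in TC71 and 20.3 to 21.2 CPM in EW8. Among 25 EMT factors and cadherins 11 were called higher in EW8 and 4 higher in TC71. TWIST2 and CDH13 were at the floor in TC71 and at 4.28 and 4 CPM in EW8, and CDH6 was 8.02 against 39.7 CPM.

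Of 12 S100 calcium-binding proteins 6 were called higher in TC71 and 3 higher in EW8, against 1 and 5 with vehicle. S100A2 was at 294.5, 305.8 and 279.2 CPM in TC71 and at 10.1, 9.88 and 9.82 CPM in EW8. It had been called higher in EW8 with vehicle at levels of at most 1.92 CPM, and its shift toward TC71 was 7.29 ± 0.32 (adjusted p = 1.63e-11). S100A16 (529.9 against 93.1 CPM) was at most 0.349 CPM in every vehicle library. S100A4 (161.1 against 37.0 CPM) had not differed past the fold limit with vehicle. S100B, a neural and glial member, had 0 counts in TC71 and 2.33 to 2.69 CPM in EW8.

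Of 17 EGF family genes 7 were called higher in TC71 and 4 higher in EW8. EGFR was at 0.194, 0.526 and 0.41 CPM in TC71 and at 50.9, 50.7 and 47.5 CPM in EW8, 131-fold higher, and with vehicle it was at 0 counts in TC71. ERRFI1 (MIG6), the feedback inhibitor of that receptor, was 1173 against 296.4 CPM. Of 46 PDGF, VEGF, FGF and IGF genes 19 were called higher in EW8 and 8 higher in TC71. NRP1 (neuropilin-1), a coreceptor for VEGF and semaphorins, was at 281.7, 277.5 and 281.4 CPM in TC71 and at 41.4, 39.2 and 43.9 CPM in EW8, with a shift toward TC71 of 3.73 ± 0.11. FGF1 was 187.9 against 68.8 CPM, and at most 0.42 CPM in any vehicle library. IGFBP4 was 7.11-fold higher in EW8.

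Of 53 TGF-beta and BMP genes 9 were called in each direction. TGFB1 was at 568.2, 623.4 and 576.8 CPM in TC71 and at 172.0, 168.0 and 157.4 CPM in EW8, and INHBA, which encodes the activin A chain, was 198.1 against 798.9 CPM. INHBA was at most 0.503 CPM in any vehicle library. TGFB2 was lower in TC71 (log2 -2.87 ± 0.25). Of 47 Wnt genes 21 were called higher in EW8 and 7 higher in TC71, and of 18 Eph receptors and ephrins 9 and 3. SFRP2 and NKD2 had 0 counts in TC71 with doxycycline, EPHA4 was 13.7-fold higher in EW8, and EFNA1 (ephrin-A1) was called with doxycycline (3.98 against 33.6 CPM) and not with vehicle (5.17 against 5.71 CPM). MAP kinase feedback genes (7 higher in TC71 and 6 in EW8 of 27) and YAP and TEAD readouts (7 and 7 of 30) were called about as often either way. The shares were 25.9% and 22.2%, and 23.3% and 23.3%, against 12.6% and 18.4% over all genes. DUSP4, a nuclear ERK phosphatase, was at the floor in TC71 and at 5.9 CPM in EW8, and DUSP2 was 32.8-fold higher in TC71. IER3 was 37.6 against 160.4 CPM and VGLL3, a TEAD cofactor, 127.2 against 22.97 CPM.

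Of 42 genes activated by EWS-FLI1 14 were called higher in EW8 and 6 higher in TC71, against 11 and 9 with vehicle. Of 40 genes repressed by EWS-FLI1 14 were called higher in TC71 and 9 higher in EW8, and 14 shifted toward TC71 against 6 toward EW8. LGALS1 (galectin-1), a repressed target, was 146.1 against 498.0 CPM with doxycycline and 6.55 against 180.1 CPM with vehicle. SOX2 was 48.1 against 141.7 CPM and SOX7 48.0 against 5.41 CPM, and SOX7 was called as shifted toward TC71 by 2.79 ± 0.25. The HOXA genes HOXA3 and HOXA7 were lower in TC71 (log2 -4.97 and -4.05), while HOXD13, the HOX gene with the highest level per kilobase of exon, was not called (71.3 against 67.8 CPM, log2 0.07, adjusted p = 0.27). MEIS1, a HOX cofactor, was 17.3 against 158.9 CPM. Of 47 neural and neuroendocrine genes 14 were called higher in TC71 and 13 higher in EW8. MAP2, a dendrite microtubule protein, was at 44.1, 46.6 and 43.9 CPM in TC71 and at 2.51, 2.02 and 2.49 CPM in EW8, whereas SNAP25, ELAVL2 and ELAVL3 were at 0 counts or the floor in TC71. NEUROD6 had 0 counts in TC71 and 52.4 to 58.9 CPM in EW8.

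Of 35 cholesterol and fatty acid synthesis genes 13 were called higher in TC71 and 2 higher in EW8 (1 without the third TC71 doxycycline library, median log2 0.78), against 8 and 3 with vehicle. SQLE, the squalene epoxidase of the sterol pathway (864.8 against 174.9 CPM), and ELOVL6, a fatty acid elongase (151.9 against 22.7 CPM), were higher in TC71, and both were called with vehicle as well. Of 39 serine synthesis and stress response genes 9 were called higher in TC71 and 5 higher in EW8, against 19 and 4 with vehicle. The first TC71 vehicle library stood apart in such genes (ATF4 at 456.6 CPM against 719.3 and 883.1 CPM) and in mitochondrial transcripts (MT-CO3 at 3603 against 1940 and 2037 CPM). Hypoxia and glycolysis genes (9 higher in TC71 and 11 in EW8 of 44) and NRF2-type redox genes (6 and 7 of 38) were called in near equal numbers. GAPDH was 1594 against 3015 CPM (log2 -0.92), under the fold limit except without the third EW8 doxycycline library (log2 -1.01). ALDH1A1 was 37.2 against 541.0 CPM, with a shift toward EW8 of -2.51 ± 0.08.

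Of 48 replication genes 0 were called higher in TC71 and 5 higher in EW8 (median log2 -0.3), and of 53 mitosis genes 0 and 5 (median -0.42). TOP2A was 228.1 against 666.2 CPM and MCM6 was 135.0 against 342.2 CPM. EZH2, the Polycomb methyltransferase, was 67.7 against 198.2 CPM. Of 36 G1 genes 11 were called higher in EW8 and 3 higher in TC71, 5 without the second EW8 doxycycline library. CDKN2A, which encodes the cyclin-dependent kinase inhibitor p16, was at 0, 0.574 and 0.728 CPM in TC71 and at 51.8, 51.3 and 47.4 CPM in EW8. CDKN1A, which encodes the cyclin-dependent kinase inhibitor p21, was 94.7 against 202.2 CPM with doxycycline and 28.9 against 21.97 CPM with vehicle. E2F7, an inhibitory E2F, was at 270.0, 272.4 and 262.3 CPM in TC71 and at 55.4, 53.8 and 55.0 CPM in EW8, with a shift toward TC71 of 2.44 ± 0.09. Of 34 BCL2 family and cell death genes 8 (23.5%) were called higher in EW8 and 2 (5.88%) higher in TC71. Over all genes the shares were 18.4% and 12.6%. CASP1, the inflammasome protease that processes interleukin-1 beta, was at 8.13 to 9.67 CPM in EW8 and at most 0.0455 CPM in TC71.

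Of 52 potassium channel genes 24 were called higher in EW8 and 13 higher in TC71, and 11 shifted toward TC71 against 0 toward EW8. Of 24 prostaglandin genes 9 were called in each direction. PTGES, the inducible prostaglandin E synthase, was at 0.291, 0.191 and 0.591 CPM in TC71 and at 32.5, 31.2 and 33.1 CPM in EW8, 88.7-fold higher, with a shift toward EW8 of -1.88 ± 0.52 (adjusted p = 0.0159). Of 51 clustered protocadherins 20 were called higher in TC71 and 11 higher in EW8, with neighbours in 1 cluster going opposite ways: PCDHGA12 was 41.3-fold higher in TC71 and PCDHGA10 48.2-fold higher in EW8. Of 21 cancer-testis genes of the X chromosome 9 were called higher in EW8 and 4 higher in TC71. XAGE1A was 376.1 against 210.8 CPM and was not called. Of 79 cytosolic ribosomal protein genes 2 were called higher in TC71 and 1 higher in EW8.

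The genes with the largest differences above 20 CPM, 8 per direction, and the 6 per direction highest with the other line at the floor were each called the same way with vehicle. KDM5C, an X-linked histone demethylase, was at 0.097, 0.0478 and 0.319 CPM in TC71 and at 435.4, 427.8 and 423.0 CPM in EW8, 2680-fold higher. CES1 (liver carboxylesterase 1) averaged 1.96 and 1929 CPM, with reads that a near-identical pseudogene could share. F2RL2 was 1100-fold, TMEM132B 530-fold, DHRS3 516-fold and CACNA1A 435-fold higher in EW8. CACNA1A, a neuronal calcium channel subunit, was 0.197 against 86.7 CPM with doxycycline and 0.0631 against 7.23 CPM with vehicle. Among genes higher in TC71, CTCFL (BORIS), a germline paralog of CTCF, was 650-fold higher (70.8 against 0.1 CPM), FUCA2 301-fold, GDA 239-fold, HTATIP2 189-fold, MGST1 167-fold and RNF212 166-fold. CDCP1, a transmembrane substrate of Src kinases, was at 432.2, 424.7 and 417.1 CPM in TC71 and at 2.65, 2.15 and 1.42 CPM in EW8. CDCP1 was at most 1.16 CPM in any vehicle library, and its shift toward TC71 had an adjusted p of 0.00567. IQSEC2, FABP7 and MUC3A were at the floor in TC71 and averaged 69.3, 45.5 and 42.5 CPM in EW8. ITPRIPL2, ADPRH and FILIP1L were at the floor in EW8 and averaged 22.9, 15.2 and 11.4 CPM in TC71, as were CT45A3, CT45A5 and FOXC2 at lower levels. CT45A3 and CT45A5 are near-identical copies whose reads can be shared.

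Among genes with a log2 difference under 0.5 in size with vehicle, those with the largest shifts toward TC71 included KCNAB1 (a potassium channel beta subunit), ANPEP (aminopeptidase N), MYH15 and MICAL2. KCNAB1 was at 87.5, 86.2 and 87.3 CPM in TC71 and at 2.85, 1.7 and 1.96 CPM in EW8, after 1.26 to 1.75 and 0.862 to 1.71 CPM with vehicle, a shift of 5.22 ± 0.3 (adjusted p = 7.06e-10). MYH15 was 234.2 against 24.3 CPM and ANPEP 105.2 against 8.35 CPM. Toward EW8 they were LPXN, EFNA1 and SYTL3. ESM1 and the near-identical pair ANXA8 and ANXA8L1, whose reads can be shared, were higher in EW8 with doxycycline and had 0 counts in all vehicle libraries, so no size of shift can be given. LPXN (leupaxin), a focal adhesion adaptor, was at 4.05, 4.04 and 3.41 CPM in TC71 and at 58.1, 56.2 and 55.8 CPM in EW8, a shift of -4.1 ± 0.22 (adjusted p = 2.5e-10). ESM1 (endocan) averaged 23.8 CPM in EW8, a lower bound of 168-fold.

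Among the genes with the largest shifts that were called one way with vehicle and the other way with doxycycline were CXCL2 and LRRC38 toward EW8, and KCNN4, CGB1 and CGB2 toward TC71. Each was at the floor in a line with vehicle, so the call with vehicle rests on a few counts. KCNN4, a calcium-activated potassium channel, was at 32.2, 36.5 and 29.5 CPM in TC71 and at 6.35, 7.1 and 4.41 CPM in EW8, with at most 0.503 CPM in EW8 under vehicle. CGB1 and CGB2 are near-identical chorionic gonadotropin genes and their counts cannot be split with certainty.

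Over 13207 protein-coding genes above the floor the median log2 difference with doxycycline was 0.05. It was 0.65 on chromosome 14, 0.57 on chromosome 3 and 0.39 on chromosome 18, and -0.48 on chromosome 7, -0.47 on chromosome 17 and -0.3 on chromosome 9. With vehicle the same chromosomes gave 0.56, 0.49, 0.17, -0.56, -0.44 and -0.4. The plot of chromosome medians shows that chromosomes 14 and 3 lie highest and 7 and 17 lowest in both conditions. NFKBIA lies on chromosome 14, and MMP1, MMP3 and MMP10 lie on chromosome 11, with a median of 0.18.

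**Figure D5:**
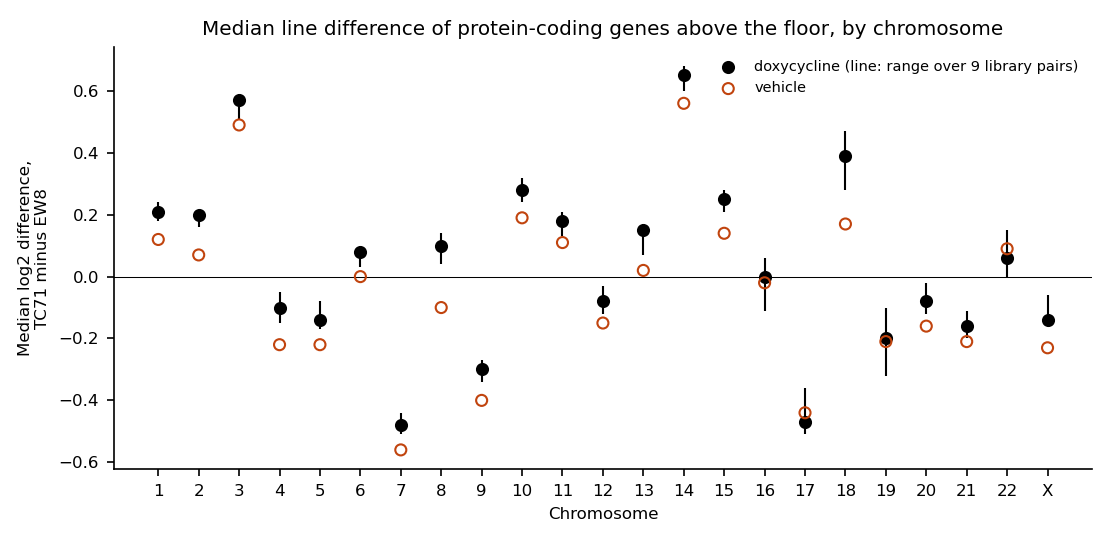
Median log2 difference (TC71 minus EW8) of protein-coding genes above the floor for chromosomes 1 to 22 and X, with filled points for doxycycline, open points for vehicle and vertical lines for the lowest and highest median over the 9 pairs of 1 TC71 and 1 EW8 doxycycline library. Chromosomes 14 and 3 reach 0.65 and 0.57 and chromosomes 7 and 17 reach -0.48 and -0.47.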

How the data were processed

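Gene-level RNA-seq of 12 libraries was analysed, 3 per line and treatment, with groups taken from the sample labels. The authors deposited raw counts per gene, made with STAR on hg38 and featureCounts 2.0.1 on GENCODE v29 exons. Per the file headers no option for pairs or strand was set, so each mate was counted, and multi-mapped and ambiguous reads were left out. FastQC and MultiQC are also in the submitters' processing notes. The libraries held 42860665 to 60853649 counts. Floors and the bounds set by them cover counting error only, whereas each SE includes the spread between libraries.

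Here the counts of all 12 libraries were fitted in R 4.3.3 with edgeR 4.0.16 (filterByExpr, TMM scaling, glmQLFit and glmQLFTest, 4 groups with no covariate). TC71 was contrasted with EW8 with doxycycline, with vehicle, and as the difference of both. All p-values printed come from this test, 2-sided, with Benjamini-Hochberg adjustment over 21013 genes. The SE of a log2 difference is its size over the square root of F. The edgeR, limma-voom and DESeq2 fits were tried on simulated counts with known changes between the lines with doxycycline. The difference of both contrasts and the later steps were not tested in this way. DESeq2 1.42.0, limma 3.58.1 (voom) and the other scalings, filters and left-out libraries were tried as alternatives.

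The members and gene lists were chosen with earlier results of these data known. Genes were named by rule: the induced genes and 4 immunoblot targets, the largest differences (8 per direction at 20 CPM or more, and 6 with the other line at the floor), up to 4 members per list, and the largest shifts. Outside that rule, and chosen after their values were seen, are BATF2, CCL28, CCL5, CDH6, CDKN1A, CGAS, COL1A1, COL1A2, COL3A1, COL5A1, COL6A1, CSF1, CXCL10, CXCL12, E2F7, EZH2, FGF1, FLNC, FOSL1, FOSL2, HLA-C, IFIT1, IFIT3, IL11, IL12A, IL1A, INHBA, IRF1, IRF9, ISG15, JUNB, LIF, LOXL1, MAP2, MEIS1, MMP13, MMP14, MMP2, MMP9, MX2, NES, NFKB1, NFKB2, NRP1, OAS1, OAS3, RELB, RIGI, S100A16, SQLE, STAT2, TAP1, TGFBI, TNF, TNFAIP3, TNFRSF10D, TNFRSF11A and TNFRSF9. The markers CD3E, CD3D, CD2 and MS4A1 were counted but not tested. Promoters were read from RefSeq sequences of GRCh38.p14, and gene positions from GENCODE of hg38. No sample was left out. Some genes that the rule names are not reported here.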

Additional observations from a re-analysis of the deposited data

Results flagged for a closer look

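The line difference itself changed between vehicle and doxycycline for the genes below, by the interaction term of the edgeR fit at an adjusted p under 0.05 and a log2 change over 1. In all, 878 genes shifted toward TC71 and 603 toward EW8. Values are log2 differences of TC71 minus EW8 with doxycycline minus the same with vehicle, so a positive value is a shift toward TC71. No explanation of a shift was tested.

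Among the collagens the values were 4.21 for COL5A3, 3.26 for COL5A1, 3.21 for COL6A2, 2.75 for COL6A1, 2.47 for COL6A3 and 1.66 for COL1A1. The crosslinking and processing enzymes gave 3.79 for LOXL2, 1.93 for BMP1 and 1.43 for LOXL1. Fibronectin, laminin and galectin gave 3.35 for FN1, 4.46 for LAMB3 and 3.01 for LGALS1. The proteases gave 5.57 for MMP1, 2.75 for MMP2 and 1.19 for MMP14, while urokinase went the other way with -2.75 for PLAU. Adhesion, cytoskeletal and calcium-binding genes gave 8.18 for FLNC, 7.29 for S100A2, 1.87 for S100A4, 2.96 for MYH15, 2.88 for MICAL2 and 1.49 for ITGA3, against -1.48 for VIM, -1.98 for KRT18 and -4.1 for LPXN.

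In the NF-kB list the values were -6.2 for BIRC3, -3.13 for TNFAIP3, -2.83 for NFKBIA, -1.93 for RELB, -1.59 for NFKB2 and -1.5 for NFKB1. Interferon-stimulated and upstream genes gave -2.81 for IFIT1, -2.23 for IFI6, -2.12 for OAS3, -2.08 for OAS1, -1.91 for IFIT3, -1.4 for IRF1, -1.34 for RIGI, -1.2 for STAT2 and -1.1 for TAP1. Cytokine and prostaglandin genes gave -3.18 for IL1A and -1.88 for PTGES, and against this order stood 4.47 for IL11, 2.87 for IL12A, 2.23 for CXCL12, 1.11 for CSF1, 2.74 for CD274, 3.15 for TNFRSF11A and 1.22 for TNFRSF10D. AP-1 subunits gave 2.21 for FOS, but -2.73 for MAFA, -2.6 for MAFF, -2.5 for FOSL2, -1.69 for BATF2, -1.58 for JUNB and -1.31 for FOSL1.

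Of the other genes named, those shifted toward TC71 had 5.22 for KCNAB1, 3.73 for NRP1, 3.46 for ANPEP, 3.16 for MAP2, 2.79 for SOX7, 2.58 for CTCFL, 2.44 for E2F7, 1.44 for NES, 1.31 for XAGE1A and 1.27 for ELOVL6. Those shifted toward EW8 had -2.94 for EFNA1, -2.86 for SYTL3, -2.51 for ALDH1A1, -2.35 for DUSP2, -1.73 for IER3, -1.56 for DHRS3, -1.49 for CDKN1A and -1.19 for NEFH.

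Where a group was at the floor the size of the shift cannot be given, and the adjusted p of the edgeR test stands alone. It was 0.000134 for ADPRH, 0.03 for BGN, 0.0305 for CACNA1A, 0.0393 for CCL28, 0.00567 for CDCP1, 4.91e-08 for CDH6, 3.6e-06 for CGB1, 1.88e-05 for CGB2, 0.0143 for COL1A2, 1.17e-06 for COL4A2, 2.41e-05 for CXCL2, 0.000123 for DUSP4, 0.00919 for EGFR, 0.00725 for FILIP1L, 0.0128 for ITPRIPL2, 1.74e-05 for KCNN4, 0.0482 for LIF, 0.000968 for LRRC38, 0.0115 for MMP13, 2.58e-07 for PECAM1, 7.76e-05 for TGFBI, 0.0468 for TIE1 and 0.0175 for TMEM132B.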

How the results depend on the processing

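With doxycycline the counts of genes higher in TC71 and in EW8 were 2642 and 3874, and 1481 genes had a changed line difference. No alternative reversed a value, and with doxycycline 0 genes were called in opposite directions by any of the 22 refits. DESeq2 gave 2598 and 3981 genes, sharing 2569 and 3846 of the calls, and limma-voom gave 2747 and 3996. Upper-quartile scaling gave 2424 and 4101, which moved the median of all genes by -0.08, and the share of calls higher in TC71 was 40.5% in the TMM fit and between 37.1% and 44.7% over the refits. Without a limit on the fold change the counts were 6342 and 6793 with doxycycline, 5936 and 7038 with vehicle and 4057 for the changed differences. With a log2 limit of 3 they were 717 and 1612, 760 and 1715, and 415. Asking for at least 10 counts in every library left 14647 genes and gave 1550 and 1914 with doxycycline, 1692 and 1874 with vehicle and 966 changed differences, and it removes genes silent in a line. TC71 calls were thus fewer with doxycycline than with vehicle under this filter, where the full set had 2642 against 2446. They were also fewer with counts divided by 2, tried because each mate was counted (2318 against 2406), and with upper-quartile scaling (2424 against 2455). DESeq2, limma-voom, the other scalings, the replicate block and the fit with no filter kept the order of the full set. Whether TC71 calls rose with doxycycline thus depends on the processing. The filter moved 56 of 118 counts of list members called, and of 309 named gene calls 151 were kept, 2 were lost and the rest could not be assessed. Leaving out 1 library gave 2400 to 2708 and 3787 to 4241 genes with doxycycline, 2407 to 2797 and 3760 to 4141 with vehicle, and 1324 to 1637 changed differences. A replicate block gave 2597 and 3776 with doxycycline, 2390 and 3920 with vehicle and 1411 changed differences, and it changed 0 of 309 gene calls. Same-numbered libraries correlated between -0.028 and 0.018 in their deviations from the group means. Such values cannot show whether libraries of the same number shared a culture or handling. Depth limits genes at the floor, for which only bounds are given.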
